A study of Mus musculus with 4 samples.

Results

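The complement system is examined here through 33 listed genes, of 25239 in the count tables, chosen by name as components, receptors and regulators of complement and read by the cell type known to make them. All 33 were found, and 32 had enough counts to be tested. Liver RNA came from C57BL/6 mice of 6 to 8 weeks. Control mice received saline. Treated mice received Gynura segetum, a herb that contains pyrrolizidine alkaloids, as an extract (2 g/mL) given into the stomach at a daily 30 g/kg over 3 weeks. The libraries of the treated mice are titled PAs group and are called extract libraries here, and each group has 2. The labels name no genetic change and do not say whether a library is 1 mouse or a pool, nor whether different mice were used for each, so the p-values rest on the spread between these samples alone, and that spread may be technical.

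Complement is a cascade of plasma proteins that tags and lyses targets. The classical pathway starts when C1q binds antibody or other ligands, the lectin pathway starts when collectins and ficolins bind sugars on a surface, and the alternative pathway amplifies both, and the pathways meet at the cleavage of C3 and end in the membrane attack complex. Hepatocytes secrete most of the circulating components, whereas the C1q chains, ficolin A and properdin come largely from macrophages and other myeloid cells. In the liver, Kupffer cells, the resident macrophages, also clear particles that carry complement fragments.

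The C1q chains, ficolin A and properdin fell 4.30-fold to 7.76-fold after the extract, while C3 and the other abundant members made by hepatocytes did not pass the threshold. By edgeR's quasi-likelihood test, at an adjusted p under 0.05, 7 of 32 members were lower (C1qa, C1qb, C1qc, Fcna, Cfp, Colec11 and C6) and 0 higher, with 25 not past the threshold. Over the 13963 genes tested, 3.63% were called lower and 4.91% higher (8.54% in either direction). At an unadjusted p under 0.05 the members gave 10 lower and 0 higher. That threshold gave 1569 lower and 1711 higher over all genes tested. DESeq2 called 9 members lower, Serping1 and Vtn among them, and 0 higher. It called 904 lower and 1024 higher of the 17942 genes with any counts, a number taken before its own filter. With limma-voom the members gave 7 lower and 0 higher, against 474 lower and 682 higher of 13963 genes. The median log2 fold change was -0.22 over the members and 0.00 over the genes tested. In CPM (counts per 1000000 on TMM-scaled library sizes), 21 of the 32 members had groups that did not overlap, 15 with the extract libraries below and 6 above, where 54.4% of the genes tested did not overlap (26.7% below and 27.6% above).

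Gene counts came to between 32215268 and 49711750 per library, so 1 read is worth 0.0208 to 0.0337 CPM. Of the gene counts, the 33 members took 2.25% to 2.77% in control and 2.32% to 2.48% in extract. The control libraries differed more from each other than the extract libraries did: the higher over the lower value had a median of 1.22 over the members in control and 1.08 in extract. It was above 1.5 for C2, Fcna, Colec11, C8g and C5ar1 in control and for Cd46 in extract. The tissue label was checked against hepatocyte markers, and albumin (Alb) took 10.2% and 10.1% of the control counts and 7.47% and 7.77% of the extract counts.

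Upstream sequence is shown for members that moved together and for 2 that did not pass the threshold, to set them side by side. RefSeq on GRCm38.p6 gave a start site for 25 of the 33 members, and the 250 bases before it were searched on both strands for 6 motifs. These were GAGGAA (the core that factors of the PU.1 type bind in myeloid cells), GTTAAT (an HNF1 half-site), TTGCNNAA (C/EBP), TTCNNNGAA (STAT3 type), CAAAGTC (HNF4 type) and a degenerate motif of the NF-kB type. Each sequence reads 5′ to 3′ on the gene's strand up to the base before the start, and capitals mark the matches, none of which overlaps another here.
C1qb, chr4:136886201-136886450, minus strand: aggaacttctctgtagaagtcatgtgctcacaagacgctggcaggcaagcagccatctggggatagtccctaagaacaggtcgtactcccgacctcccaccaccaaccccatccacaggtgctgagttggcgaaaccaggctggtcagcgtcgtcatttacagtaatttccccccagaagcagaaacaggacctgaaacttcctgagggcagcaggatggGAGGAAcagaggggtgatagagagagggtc
C1qc, chr4:136892915-136893164, minus strand: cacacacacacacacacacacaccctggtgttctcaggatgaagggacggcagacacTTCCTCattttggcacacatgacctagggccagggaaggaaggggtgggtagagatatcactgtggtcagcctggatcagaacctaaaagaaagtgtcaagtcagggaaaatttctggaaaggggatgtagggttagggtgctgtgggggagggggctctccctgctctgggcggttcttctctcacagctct
Fcna, chr2:25627975-25628224, minus strand: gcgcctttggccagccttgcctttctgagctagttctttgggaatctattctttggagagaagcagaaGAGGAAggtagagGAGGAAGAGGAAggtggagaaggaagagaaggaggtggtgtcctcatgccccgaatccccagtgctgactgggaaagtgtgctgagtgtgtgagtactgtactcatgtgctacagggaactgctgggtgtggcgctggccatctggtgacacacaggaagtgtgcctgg
Cfp, chrX:20931556-20931805, minus strand: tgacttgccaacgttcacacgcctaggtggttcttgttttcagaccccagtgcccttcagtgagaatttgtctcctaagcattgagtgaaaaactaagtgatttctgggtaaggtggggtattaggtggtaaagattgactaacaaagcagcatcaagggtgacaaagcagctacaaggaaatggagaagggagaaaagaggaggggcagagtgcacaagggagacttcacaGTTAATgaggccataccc
C3, chr17:57228137-57228386, minus strand: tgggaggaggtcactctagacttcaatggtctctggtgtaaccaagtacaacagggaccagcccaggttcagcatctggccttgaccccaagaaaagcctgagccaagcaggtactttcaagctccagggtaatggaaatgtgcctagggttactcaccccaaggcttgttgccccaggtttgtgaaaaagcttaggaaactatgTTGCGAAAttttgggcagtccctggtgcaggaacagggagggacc
C8a, chr4:104876399-104876648, minus strand: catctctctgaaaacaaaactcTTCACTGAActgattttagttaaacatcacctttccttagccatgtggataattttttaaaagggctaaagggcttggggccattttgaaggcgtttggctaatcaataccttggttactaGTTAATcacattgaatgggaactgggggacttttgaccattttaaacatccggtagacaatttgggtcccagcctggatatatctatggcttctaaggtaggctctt
The letters GAGGAA stood once in the C1qb window, once on the opposite strand in the C1qc window, where they read TTCCTC, and 3 times in the Fcna window. They were found in 4 of the 25 member windows (the other is Cd59a) and in 3 of the 6 windows of members that fell. Of 27025 windows in the table, 23.1% hold these letters. GTTAAT stood in 7 member windows (C1ra, Cfp, Hc, C8a, C8b, C4bp and Vtn), against 6.52% of windows in the table. TTGCNNAA stood in 3 (C1s1, C3 and C9, against 9.55%), TTCNNNGAA in 3 (Masp2, Colec11 and C8a, against 7.18%), the NF-kB type motif in 1 (C3ar1, against 1.40%) and CAAAGTC in 1 (Vtn, against 3.80%). The C6 window held 0 of the 6 motifs. The start site used need not be the outer end of a gene: the Fcna window lies inside the gene's span of 25624665 to 25635440. A match is a description of these letters and does not show binding.

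The 3 chains of C1q, the recognition subunit of the classical pathway, fell together. Their genes lie side by side on chromosome 4 (mm10) in the order C1qb (136880126 to 136886200), C1qc (136889801 to 136892936) and C1qa (136895916 to 136898844). C1qa stood at 97.2 and 71.6 CPM in the control libraries and at 13.7 and 14.3 CPM in the extract libraries (edgeR log2 fold change -2.59, SE 0.19, adjusted p = 0.000808). Both extract libraries lay far below both controls, a 6.02-fold difference. C1qb went from 83.7 and 61.2 CPM to 17.1 and 16.6 CPM (edgeR log2 fold change -2.11, SE 0.19, adjusted p = 0.00175). C1qc went from 77.7 and 64.0 CPM to 13.3 and 14.8 CPM (edgeR log2 fold change -2.34, SE 0.16, adjusted p = 0.000691). For each of the 3 chains both extract libraries lay below both controls, and the extract libraries lay within 1.11-fold of each other. In bulk liver, fewer cells of a type and less RNA per cell cannot be told apart.

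The proportions of the chains can be read per length of merged exons. Of the C1q signal per length, C1qa made up 44.4% and 43.5% in control and 36.8% and 37.6% in extract. C1qb made up 36.5% and 35.5% in control and 44.0% and 41.5% in extract. C1qc took 19.1% and 20.95% in control and 19.2% and 20.9% in extract, so its share overlapped between the groups. The shift between C1qa and C1qb was not tested.

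**Figure D1:**
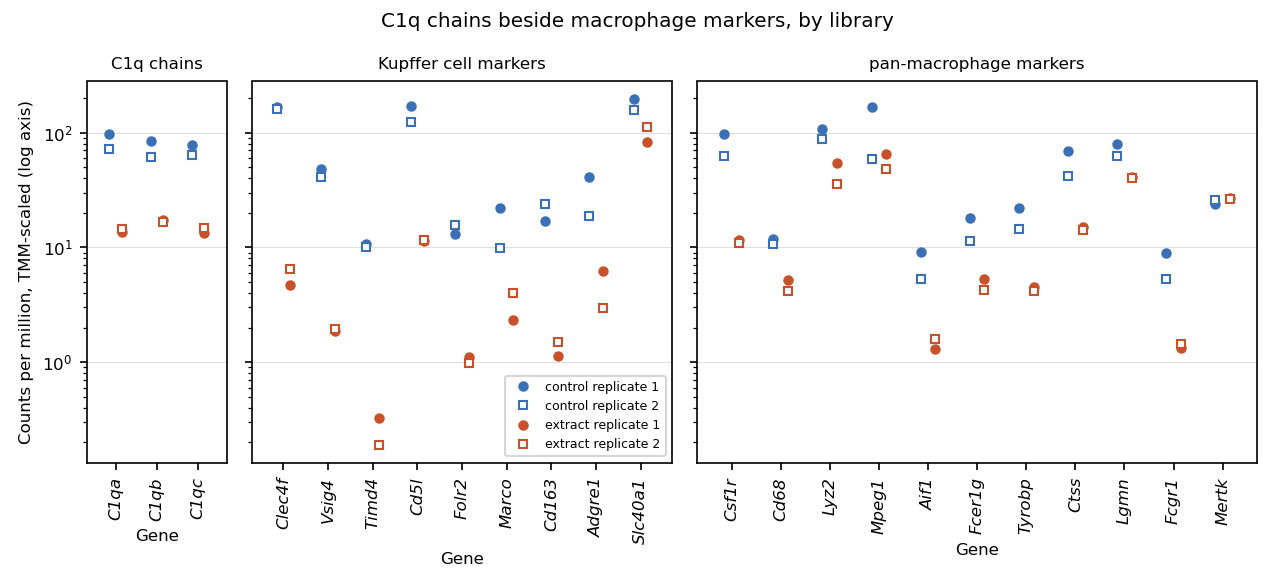
CPM on a log axis for the C1q chains, 9 Kupffer cell markers and 11 of the 12 pan-macrophage markers. Each point is a library (blue control, orange extract, circle replicate 1, open square replicate 2). The C1q chains lie at 61.2 to 97.2 CPM in control and 13.3 to 17.1 in extract, and 9 of 12 pan-macrophage markers were lower while Mertk and Mpeg1 did not pass the threshold.

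Macrophage markers moved with the C1q chains. Of 9 Kupffer cell markers tested, 8 were lower and 0 higher (edgeR; 9 lower and 0 higher at an unadjusted p under 0.05), and their summed level was 684 and 558 CPM in control and 112 and 142 CPM in extract. Clec4f, a lectin restricted to Kupffer cells, went from 167 and 160 CPM to 4.73 and 6.5 CPM (log2 fold change -4.86). Cd5l, a protein that macrophages secrete, went from 169 and 122 CPM to 11.3 and 11.6 CPM (-3.67). Slc40a1, the iron exporter, kept 83.0 and 112 CPM in extract from 197 and 157 CPM (-0.85), which is most of the summed level there. Adgre1, which encodes F4/80, had the same sign without passing the threshold (-2.72, edgeR adjusted p = 0.0651). No marker on this list was at 0 in any of the 4 libraries.

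Of 12 pan-macrophage markers, 9 were lower and 0 higher (edgeR; the same counts at an unadjusted p under 0.05), with a sum of 643 and 407 CPM in control and 284 and 220 CPM in extract. Among the most abundant, lysozyme (Lyz2, log2 fold change -1.11) and legumain (Lgmn, -0.80) were lower, and Mpeg1 did not pass (-1.004, edgeR adjusted p = 0.381). The summed C1q level was 40.2% and 48.3% of this sum in control and 15.5% and 20.7% in extract. Against it, Clec4f came to 64.5% and 81.3% of the C1q level in control and 10.7% and 14.2% in extract. Against the sum of the whole Kupffer cell list, C1q came to 37.8% and 35.2% in control and 39.4% and 32.1% in extract, so the groups overlapped. Most of the pan-macrophage sum is Mpeg1, Lyz2 and Lgmn, which changed less than the C1q chains. Csf1r, on the same list, fell further than they did (-2.83), so this ratio depends on the markers summed. C1q lay lower relative to the pan-macrophage sum in both extract libraries, and higher relative to the single gene Clec4f. It overlapped relative to the Kupffer cell sum, most of which is Slc40a1 in extract. These ratios carry no test, and the part that the number of macrophages has in the C1q values was not tested. Recruited macrophage markers had 1 of 9 higher and 0 lower (edgeR; 2 higher and 0 lower at an unadjusted p under 0.05), with a sum of 64.9 and 72.6 CPM in control and 86.6 and 85.6 CPM in extract. The 1 was Gpnmb (3.43), named after its value was seen, and the most abundant of them, Spp1 (-0.05), Cd9 (0.54) and Ccr2 (0.72), did not pass the threshold.

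**Figure D2:**
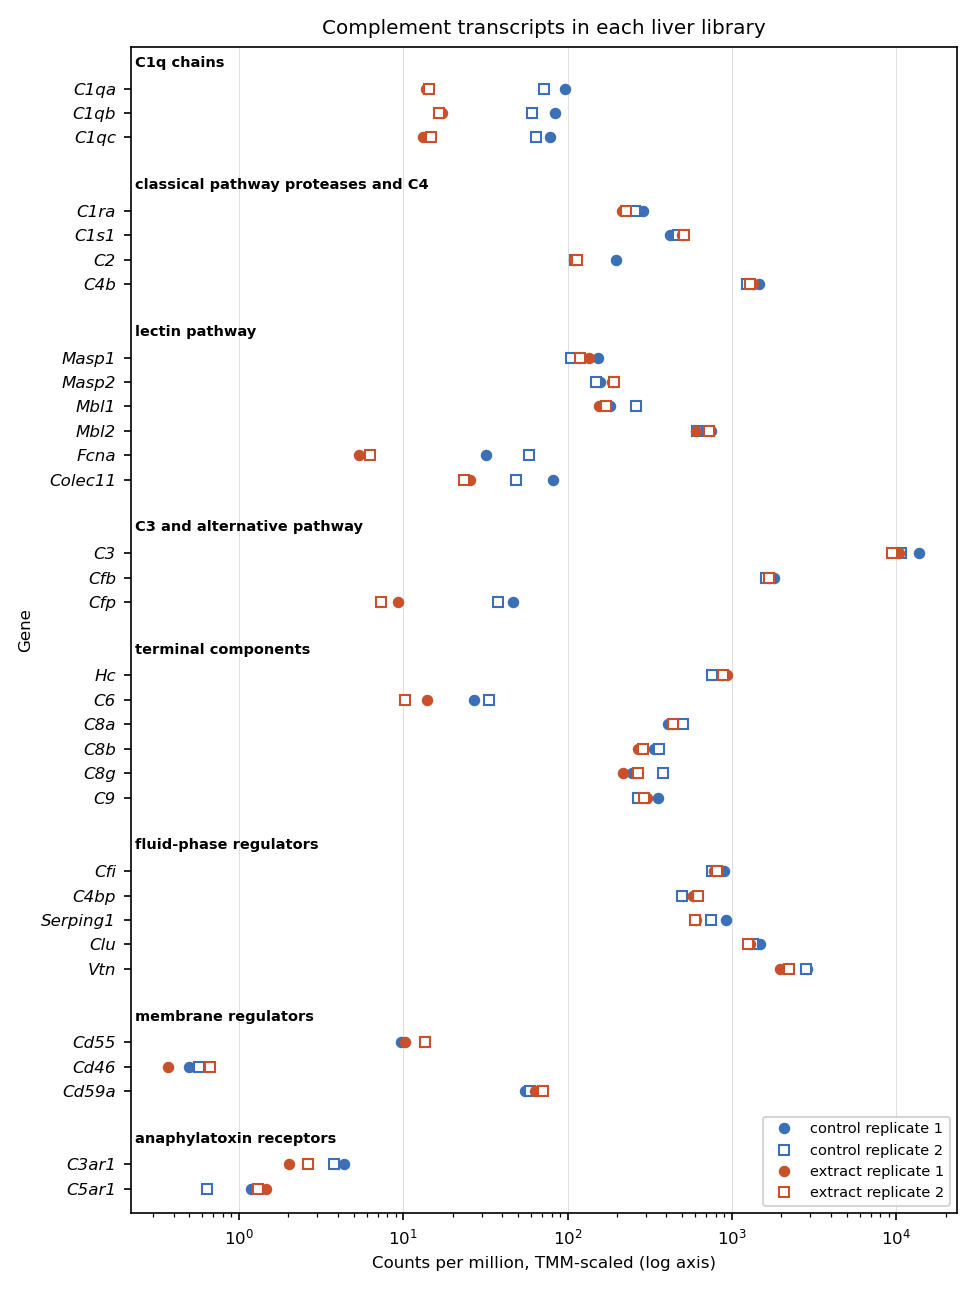
CPM on a log axis for the 32 members tested, grouped by role; each point is a library (blue control, orange extract, circle replicate 1, open square replicate 2). CPM is not divided by gene length, so the plot compares libraries and not genes. The orange points stand clear to the left for the C1q chains, Fcna, Colec11, Cfp and C6, while the members above 100 CPM lie close together.

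The other proteins of the classical pathway did not pass the threshold. C1ra and C1s1 encode the proteases that C1q activates, and C2 and C4b encode the proteins that they cleave to form the C3 convertase. Of these 4, 0 were called in either direction by edgeR, 0 at an unadjusted p under 0.05, and 0 by DESeq2 or limma-voom. C1s1 stood at 421 and 470 CPM in control and 499 and 513 CPM in extract (log2 fold change 0.18, 95% interval -0.15 to 0.52). C1ra stood at 286 and 257 CPM in control and 213 and 227 CPM in extract (-0.30, -0.64 to 0.03). So the extract libraries lay above both controls for C1s1 and below both for C1ra, without either difference passing the threshold. C4b lay at 1459 and 1240 CPM in control and 1351 and 1289 CPM in extract (-0.03, -0.41 to 0.34), with overlapping groups.

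C2 depended on which control library was read. Its values were 196 and 111 CPM in control and 110 and 114 CPM in extract (log2 fold change -0.45, edgeR adjusted p = 0.382). Without control replicate 2 the value was -0.80, and without control replicate 1 it was 0.02. Such a fit takes its spread from the extract libraries alone. For C2 these differed 1.04-fold from each other, where the control libraries differed 1.76-fold. Parts of these transcripts are shared with other genes, so reads can be lost or split. Of stretches of 75 bases, C1ra shares 42.4% (C1rb), C1s1 24.8% (C1s2), C2 39.2% (Gm20547, a joint transcript with Cfb, and Zbtb12) and C4b 22.7% (C4a). In all, 10 of the 33 members share a stretch with another gene, and 0 of the 7 that fell do.

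In the lectin pathway, 2 of 6 members fell and 0 rose (edgeR; the same counts at an unadjusted p under 0.05). Fcna encodes ficolin A, which binds acetylated sugars and is made by macrophages in the liver. It stood at 31.9 and 58.5 CPM in control and at 5.35 and 6.27 CPM in extract (edgeR log2 fold change -2.96, SE 0.32, adjusted p = 0.00551), a 7.76-fold difference. The control libraries differed 1.83-fold between themselves, and both lay above both extract libraries by more than that. Fcna lies on chromosome 2 (25624665 to 25635440).

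Colec11 encodes a collectin that pairs with the product of Colec10 in plasma. It lies on chromosome 12 (28594172 to 28623458) and went from 81.5 and 48.4 CPM to 25.6 and 23.5 CPM (edgeR log2 fold change -1.40, SE 0.25, adjusted p = 0.0236). Its adjusted p was 0.0743 without extract replicate 1 and 0.0905 without extract replicate 2. Colec10, its partner, is also a stellate cell marker and fell from 56.9 and 42.6 CPM to 15.2 and 13.1 CPM (-1.82, SE 0.19, edgeR adjusted p = 0.00333). Of 12 stellate cell markers, 2 were lower (Colec10 and Ecm1, -1.26) and 0 higher (edgeR; 3 lower and 0 higher at an unadjusted p under 0.05), with sums of 952 and 606 CPM in control and 646 and 496 CPM in extract. Dcn (-0.30) and Col3a1 (0.01), with Ecm1 the most abundant of them, did not pass the threshold. The part of stellate cells in the Colec11 value was not tested.

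The mannose-binding lectins and their proteases did not pass the threshold. Mbl2 stood at 746 and 612 CPM in control and 601 and 725 CPM in extract (log2 fold change -0.04, 95% interval -0.45 to 0.38). Mbl1 stood at 181 and 261 CPM in control and 156 and 170 CPM in extract (-0.44, -0.91 to 0.03, edgeR adjusted p = 0.244). Without control replicate 1, the lower of the controls, Mbl1 gave -0.68, and without control replicate 2 it gave -0.15. Masp1 and Masp2 encode the proteases that the lectins activate. Masp2 stood at 158 and 149 CPM in control and 188 and 191 CPM in extract (0.30, -0.02 to 0.61), and shares 51.4% of its stretches with Tardbp, which overlaps it on the opposite strand. Masp1 overlapped between the groups, at 153 and 104 CPM in control and 134 and 119 CPM in extract.

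C3, on which the pathways converge, was the most abundant member per length of merged exons, with 2381 CPM per kb in control and 1934 in extract on average. It lies on chromosome 17 (57203967 to 57228136) and stood at 13849 and 10641 CPM in control and 10472 and 9420 CPM in extract (log2 fold change -0.30, 95% interval -0.76 to 0.16, edgeR adjusted p = 0.417). Both extract libraries lay below both controls, but by less than the controls differed from each other. C3 made up 48.3% and 43.7% of the summed CPM of the members in control and 45.6% and 42.2% in extract. Vitronectin (Vtn) was next per length with 1408 CPM per kb in control, then Mbl2 with 624 and Cfb with 606, and the neighbours Mbl2 and Cfb overlapped in their control values per length (685 and 562 against 640 and 572). Of the stretches of 75 bases in Cfb, 69.9% are shared with Gm20547, the highest share of any member, and 0 in Mbl2, so reads of Cfb may be lost and its level per length may be too low.

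Of the alternative pathway, Cfp fell and Cfb did not pass the threshold. Cfp encodes properdin, which stabilises the alternative C3 convertase, and lies on chromosome X (20925454 to 20931555). It went from 46.5 and 37.9 CPM to 9.34 and 7.32 CPM (edgeR log2 fold change -2.34, SE 0.19, adjusted p = 0.00135), a 5.06-fold difference with groups that did not overlap. Neutrophils also make properdin: of 9 neutrophil markers 4 were tested and 0 called, also at an unadjusted p under 0.05, with sums of 10.8 and 3.74 CPM in control and 3.52 and 4.45 CPM in extract, and Ly6g at 0 in control replicate 2 and extract replicate 2. The most abundant of them, Csf3r (-0.74), S100a9 (-0.85) and S100a8 (-0.86), did not pass the threshold. S100a9 overlapped between the groups, at 3.17 and 0.0337 CPM in control and 0.556 and 1.26 CPM in extract. So did S100a8, at 2.08 and 0.0337 CPM in control and 0.371 and 0.818 CPM in extract. Cfb encodes factor B, the protease of that convertase, and stood at 1808 and 1617 CPM in control and 1683 and 1693 CPM in extract (-0.02, 95% interval -0.38 to 0.34).

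Cfd encodes factor D, the protease that cleaves factor B, which fat cells secrete. It had 0 counts in both control libraries and 22 and 4 counts in the extract libraries (0.510 and 0.0839 CPM), and too few counts to be tested. The upper limit of a 0 count (3 counts, for counting error only) was 0.0625 CPM in control replicate 1 and 0.101 CPM in control replicate 2, so extract replicate 2 lay below the limit of control replicate 2. Among adipocyte markers, Lep was at 0 in the 4 libraries, and Adipoq was at 0 in control replicate 2 and extract replicate 2. The 4 adipocyte markers tested gave 0 calls, also at an unadjusted p under 0.05, and the list of 8 summed to 81.1 and 73.5 CPM in control and 76.8 and 83.8 CPM in extract, most of it Pnpla2 (0.02), which many tissues express, followed by Fabp4 (0.10) and Plin4 (0.04).

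**Figure D3:**
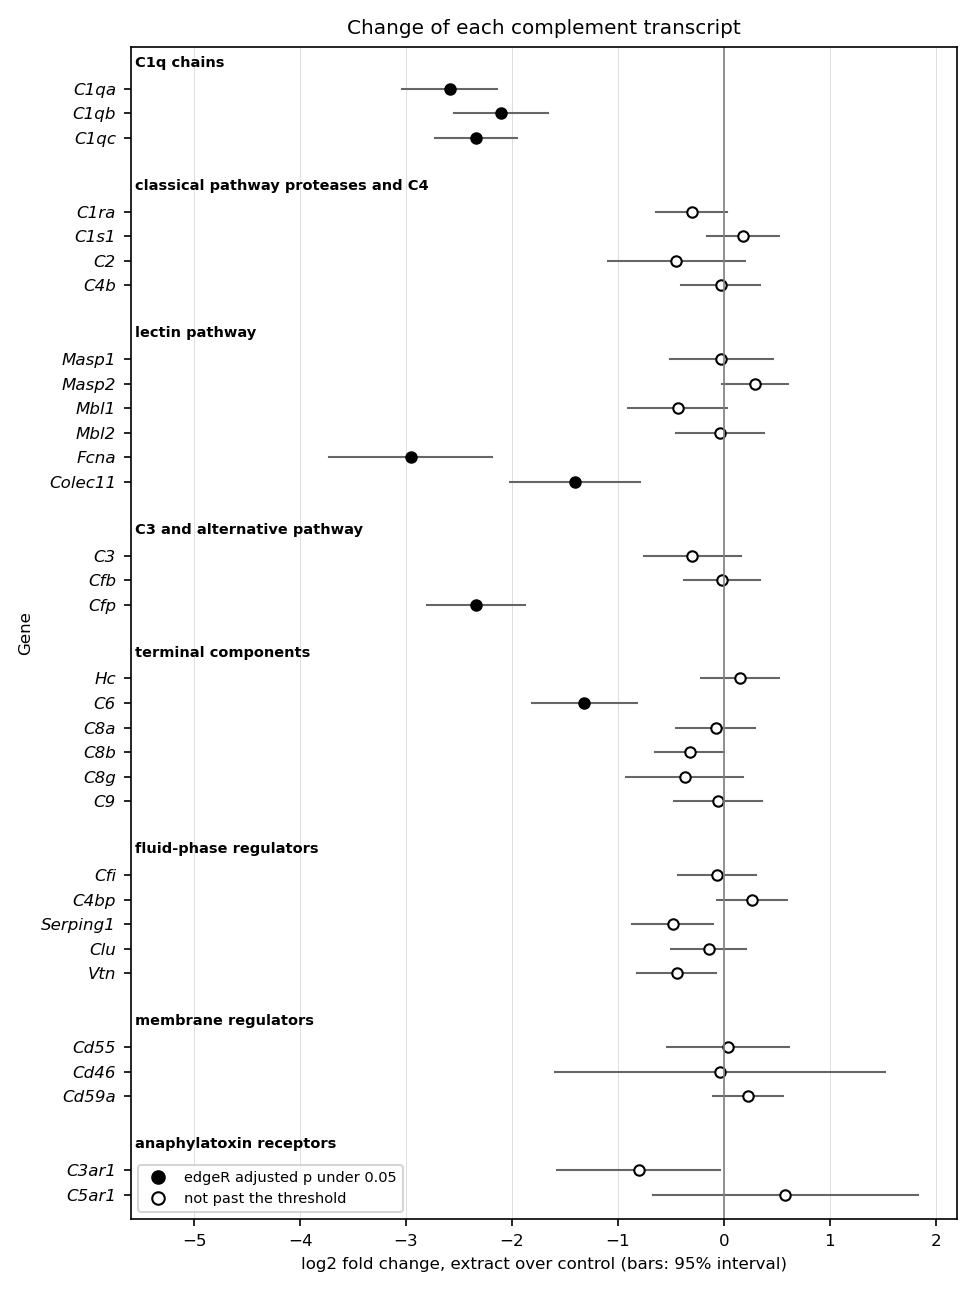
Log2 fold change of extract over control for the 32 members tested, grouped by role; points are edgeR estimates, bars are 95% intervals, and filled points have an adjusted p under 0.05. The filled points run from -2.96 (Fcna) to -1.32 (C6), and the remaining 25 members lie between -0.80 and 0.58.

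Among the terminal components, which build the membrane attack complex, C6 fell. C6, which links C5b to C7, lies on chromosome 15 (4727067 to 4804045). It stood at 26.9 and 33.3 CPM in control and at 13.95 and 10.2 CPM in extract (edgeR log2 fold change -1.32, SE 0.21, adjusted p = 0.0137). Both extract libraries lay below both controls, and without extract replicate 2 the adjusted p was 0.0689. Per length of merged exons C6 was the least abundant of the 6 terminal components, at 8.47 CPM per kb in control, where the others lay between 121 and 210.

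The other 5 terminal components did not pass the threshold in either direction by edgeR or DESeq2, and 0 of them had an unadjusted p under 0.05. Hc, which encodes C5, the source of the anaphylatoxin C5a, stood at 876 and 754 CPM in control and 933 and 879 CPM in extract (log2 fold change 0.15, 95% interval -0.21 to 0.52). C8a and C8b, neighbours on chromosome 4 that encode chains of C8, gave -0.08 (-0.45 to 0.30) and -0.32 (-0.65 to 0.01). C8g, the third chain, stood at 247 and 380 CPM in control and 219 and 267 CPM in extract (-0.37). C8g too depended on the control library: it was -0.65 without control replicate 1 and -0.02 without control replicate 2. C9, which forms the ring of the pore, overlapped between the groups at 354 and 267 CPM in control and 305 and 292 CPM in extract (-0.06, -0.47 to 0.36).

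Members above a mean of 100 CPM, a boundary chosen after the values were seen, number 20, and edgeR called 0 of them. At an unadjusted p under 0.05 there were 2 (Serping1 and Vtn, both lower and both called by DESeq2). Over all 13963 genes tested, 1569 were lower and 1711 higher at that threshold. The log2 fold changes of these 20 members ran from -0.48 to 0.30, with a median of -0.07. Their 95% intervals ran from -1.10 to 0.61. Of the 12 tested members below that mean, 7 were lower. Among 13 hepatocyte markers 2 were lower (Apoa1 and Ahsg) and 0 higher (edgeR; 5 lower and 0 higher at an unadjusted p under 0.05). Their sum went from 179720 and 186333 CPM to 122687 and 129488 CPM, most of it albumin (Alb, log2 fold change -0.58, edgeR adjusted p = 0.0982). Trf, the gene of transferrin, gave -0.54 (0.0973), and Ahsg, the gene of fetuin-A, fell (-0.75, 0.0491).

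Of 5 fluid-phase regulators, edgeR called 0 (with 2 lower and 0 higher at an unadjusted p under 0.05). Serping1 encodes the C1 inhibitor, which blocks the C1 and lectin proteases. It stood at 927 and 750 CPM in control and 603 and 596 CPM in extract (edgeR log2 fold change -0.48, SE 0.16, adjusted p = 0.129). DESeq2 gave an adjusted p of 0.0483. The edgeR value was -0.63 without control replicate 2 and -0.32 without control replicate 1. Vtn, which encodes vitronectin, an inhibitor of the terminal complex, stood at 2879 and 2836 CPM in control and 1969 and 2223 CPM in extract (-0.45, SE 0.16, edgeR adjusted p = 0.142, and 0.0409 with DESeq2). For both, the extract libraries lay below both controls.

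Clu, the gene of clusterin, also an inhibitor of the terminal complex, lay at 1474 and 1342 CPM in control and 1289 and 1260 CPM in extract (log2 fold change -0.14, 95% interval -0.50 to 0.21). Cfi, the protease that inactivates C3b and C4b, overlapped between the groups at 899 and 760 CPM in control and 782 and 806 CPM in extract (-0.06, -0.43 to 0.30). C4bp, the cofactor that holds C4b for factor I, stood higher in both extract libraries, at 507 and 495 CPM in control and 580 and 623 CPM in extract (0.26, -0.07 to 0.59, edgeR adjusted p = 0.323).

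Of the 3 membrane regulators and 2 anaphylatoxin receptors, 0 were called by edgeR, 1 was lower at an unadjusted p under 0.05 (C3ar1) and 0 called by DESeq2. Cd59a, which blocks the membrane attack complex on host cells, lay at 54.9 and 59.5 CPM in control and 63.2 and 70.4 CPM in extract (log2 fold change 0.22, 95% interval -0.11 to 0.55). Cd55, which encodes decay-accelerating factor, overlapped between the groups at 9.73 and 13.5 CPM in control and 10.2 and 13.7 CPM in extract (0.04, -0.53 to 0.62). Cd46, which in mice is largely restricted to the testis, had 24 and 17 counts in control and 16 and 32 counts in extract. A change of it was not detectable at this depth, with a 95% interval from -1.59 to 1.52.

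C3ar1, the C3a receptor of myeloid cells, stood at 4.33 and 3.77 CPM in control and 2.02 and 2.62 CPM in extract (edgeR log2 fold change -0.80, SE 0.32, adjusted p = 0.196). C5ar1, the C5a receptor, stood at 1.19 and 0.639 CPM in control and 1.46 and 1.30 CPM in extract (0.58, SE 0.53, edgeR adjusted p = 0.58). Both extract libraries lay below both controls for C3ar1 and above them for C5ar1, and neither passed the threshold.

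Outside the 33 members, 29 other genes of the pathway were listed and 25 tested, of which 1 was higher and 3 lower, with 21 not past the threshold and a median of -0.08. Vsig4, the receptor through which Kupffer cells bind C3b and iC3b, stood at 47.7 and 41.0 CPM in control and 1.85 and 1.93 CPM in extract (edgeR log2 fold change -4.55, SE 0.18, adjusted p = 0.000196). Cpn2, the large subunit of carboxypeptidase N, which inactivates the anaphylatoxins, fell from 573 and 505 CPM to 344 and 328 CPM (edgeR log2 fold change -0.68, SE 0.15, adjusted p = 0.0358). Colec10 was the other gene that fell. Cd93, an endothelial surface protein once described as a C1q receptor, rose from 11.1 and 4.88 CPM to 43.1 and 41.5 CPM (2.39, SE 0.39, edgeR adjusted p = 0.0258). Cd93 was not past the threshold without extract replicate 1 (0.11), without extract replicate 2 (0.0934), without a filter on low counts (0.0815) or with a minimum fold of 1.5 (0.0535). Of 10 sinusoidal endothelial markers 7 were lower and 0 higher (edgeR; 7 lower and 1 higher at an unadjusted p under 0.05), with sums of 419 and 434 CPM in control and 269 and 256 CPM in extract. The most abundant of them, Kdr (0.41), Stab1 (0.22) and Lyve1 (0.84), did not pass the threshold. These 3 had the only positive values of the 10, and the list had a median of -1.48. Lyve1 stood at 47.7 and 10.5 CPM in control and 54.8 and 50.0 CPM in extract. The part of endothelial cells in the Cd93 value was not tested.

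**Figure D4:**
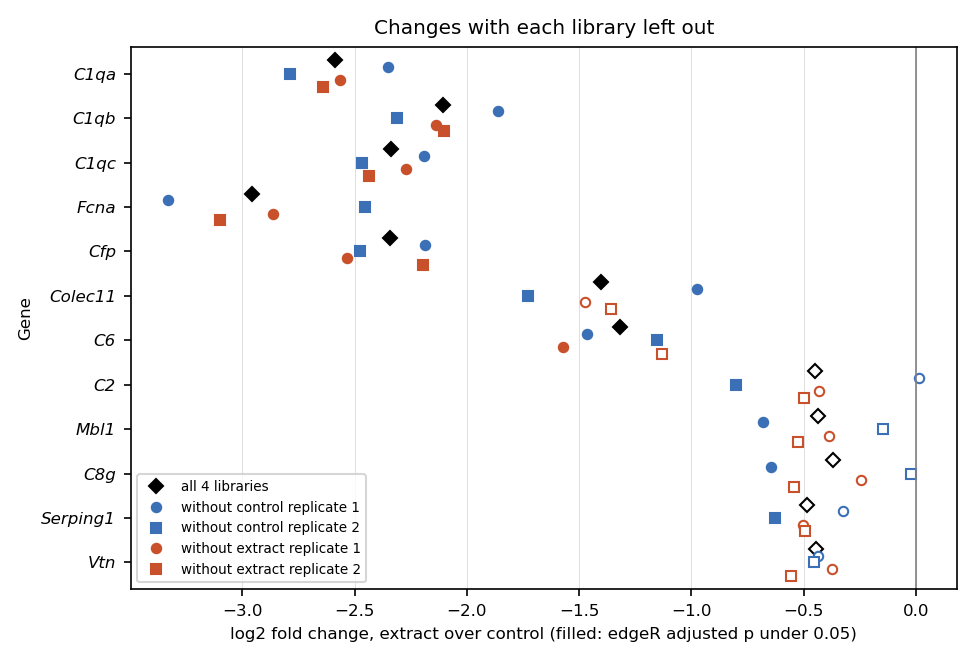
Log2 fold change of extract over control for the 7 members that fell and for 5 that did not pass the threshold but did in an alternative. Diamonds use the 4 libraries, circles and squares leave out replicate 1 or 2 of control (blue) or extract (orange), and filled symbols have an edgeR adjusted p under 0.05. C1qa, C1qb, C1qc, Fcna and Cfp are filled throughout, and C2 lies between -0.80 and 0.02 depending on the control library left out.

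Leaving out 1 library at a time, where a single remaining library takes the spread of the other group, kept C1qa between -2.79 and -2.35, C1qb between -2.31 and -1.86, C1qc between -2.47 and -2.19, Fcna between -3.33 and -2.45 and Cfp between -2.53 and -2.19, each past the threshold. The number of genes called over the whole table moved widely with the library left out. Counts of members called lower are therefore not compared between these fits. In these fits 0 members were higher.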

How the data were processed

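The files deposited by the authors hold raw counts per gene symbol for 4 mouse liver libraries. HISAT2 2.1.0, HTSeq, CASAVA 1.8 and the mm10 build are named per the submitters' processing notes, with no roles. The sources used here do not give the annotation or the strand setting. The 5 closing rows of each file name no gene and stayed out of library sizes and tests. Of all records, 6.70% and 9.03% (control) and 5.18% and 5.33% (extract) were placed at more than 1 site, and 8.40%, 10.2%, 8.88% and 9.79% in no annotated feature.

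The test was edgeR's quasi-likelihood F test, which is 2-sided (edgeR 4.0.16, R 4.3.3, with filterByExpr, TMM scaling and robust dispersion and glmQLFit). Benjamini-Hochberg adjustment covered the 13963 genes that passed the filter, and the threshold was 0.05. The fit was tested on simulated data for 13963 genes, with 50 genes set to differ at each fold. It recovered 1 of 50 at 1.5-fold, 14 of 50 at 2-fold, 40 of 50 at 4-fold and 43 of 50 at 8-fold. It also called 13 genes that were set not to differ. Most of the differences set at 1.5-fold or 2-fold were thus missed. The genes set to differ were drawn at random from all 13963, at any level, and were far fewer than the 1193 called in the data. Recovery among the members, many of them abundant, can therefore differ from these shares. CPM values are counts per 1000000 on the TMM-scaled library sizes. For levels between genes, CPM was divided by the length of the merged GENCODE vM21 exons (GRCm38, the assembly of mm10). Gene positions and promoters come from RefSeq on GRCm38.p6, matched by symbol, for 33 and 25 members. Stretches of 75 bases of the members' transcripts were sought in the GENCODE transcripts of other genes, on both strands.

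The members and the lists were chosen with earlier results of these data known. The lists are other complement genes, markers of Kupffer cells, macrophages in general, recruited macrophages, neutrophils, adipocytes, hepatocytes, stellate cells, sinusoidal endothelium, cholangiocytes and lymphocytes, acute phase genes and hepatocyte transcription factors. Every member is accounted for. The list of macrophages in general enters counts and sums whole, and 1 of its genes is not reported here by itself. The naming rule then took the called genes among other complement genes (at most 6, none with a mean below 1 CPM) and up to 3 genes of each marker list with the highest mean CPM. Adgre1, Csf1r, Mertk, Gpnmb, Ly6g, Lep, Adipoq, Apoa1, Saa1, Serpina3n, Orm2, Cebpb, Socs3, Il6st and Il6ra fall outside it. So do the C3 and C8a sequences, and all of these were chosen after their values were seen. The alternatives were DESeq2 1.42.0's size factors, upper-quartile and total-count scaling, DESeq2's Wald test, limma-voom (limma 3.58.1), no robust step, no filter, a strict filter (at least 10 counts in 2 libraries, mean CPM of at least 1), fits without the 20 most abundant genes or without each library, a replicate block and a minimum fold of 1.5.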

Additional observations from a re-analysis of the deposited data

How the results depend on the processing

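No member was called higher in any of the 15 alternatives, and 5 to 9 members were called lower, against 7. C1qa, C1qb, C1qc, Fcna and Cfp were past the threshold in each alternative. Colec11 and C6 were not past it with a minimum fold of 1.5 (edgeR adjusted p = 0.0825 and 0.0556), nor with the extract libraries left out that are named beside their values. The median log2 fold change of the members, -0.22, was -0.0567 with total counts, -0.15 with DESeq2's Wald test, -0.14 without a filter, -0.30 with the strict filter and -0.16 without the 20 most abundant genes, which include C3, and -0.24 to -0.13 with a library left out. Total-count scaling moved the median of the genes tested from 0.00 to 0.16. Relative to that shift the values it turned positive lay below 0: C4b 0.13, Masp1 0.14, Mbl2 0.13, Cfb 0.15, C8a 0.0946, C9 0.11, Cfi 0.10, Clu 0.0222 and Cd46 0.13. With 1 library left out, members with sign changes, none past the threshold with the 4 libraries, covered these ranges. C2 ran from -0.80 to 0.0153, C4b ran from -0.14 to 0.0897, Masp1 ran from -0.27 to 0.28, Mbl2 ran from -0.20 to 0.11, Cfb ran from -0.0959 to 0.0616. C8a ran from -0.22 to 0.0828, C9 ran from -0.24 to 0.16, Cfi ran from -0.18 to 0.0631, Cd55 ran from -0.20 to 0.30, Cd46 ran from -0.55 to 0.32. With limma-voom Masp1 lay at 0.00024. The cause of these changes was not tested.

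Among other complement genes the count called higher was 1, and 0 without a filter or with a minimum fold of 1.5 and 0 to 2 with a library left out, while the count called lower was 3, and 2 to 5 with a library left out. Over the whole table, 686 genes were higher and 507 lower. These counts ran from 233 to 1826 and from 134 to 1782 with a library left out. They were 314 and 186 with a minimum fold of 1.5, and DESeq2 called 904 lower. A group left with 1 library takes the spread of the other group. The libraries share replicate numbers between the groups, with nothing that says a number marks a shared mouse or batch. Deviations of same-numbered libraries correlated at 0.22 across genes and at 0.41 across the members. With the replicate block, 7 members were lower and 0 higher, and 902 genes were higher and 682 lower.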

Other observations

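Complement genes belong in part to the acute phase, the hepatic response to inflammatory cytokines, and the other acute phase genes went in both directions. Of 18 tested, 2 were higher and 3 lower by edgeR, with a median log2 fold change of 0.13 (4 higher and 6 lower at an unadjusted p under 0.05). In log2 fold change 9 of them were positive and 9 negative. They summed to 31249 and 30018 CPM in control and 21051 and 20035 CPM in extract. Most of that sum is the 3 fibrinogen chains in each library, so it does not describe the list as a whole. The 3 fibrinogen chains, which form the clot, were lower: Fga fell from 8817 and 7993 CPM to 4258 and 4137 CPM (-1.002), with Fgb at -1.01 and Fgg at -1.03. Serpina3n, a protease inhibitor, rose from 331 and 328 CPM to 1256 and 1091 CPM (1.83, edgeR adjusted p = 0.00139), and Orm2, an orosomucoid, rose from 38.7 and 33.2 CPM to 104 and 65.8 CPM (1.23, 0.0272). These 2 were named after their values were seen. Saa1, the classical serum amyloid, overlapped between the groups (-0.11).

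Of 11 hepatocyte transcription and cytokine signalling factors, 2 were higher and 0 lower (edgeR; 2 higher and 4 lower at an unadjusted p under 0.05), and they summed to 2027 and 1821 CPM in control and 1732 and 1696 CPM in extract. The 2, named after their values were seen, were Cebpb (0.90, edgeR adjusted p = 0.012), a factor of acute phase genes, and Socs3 (1.53, 0.00749), a feedback inhibitor of gp130 signalling. The abundant Hnf4a (-0.40), Cebpa (-0.06) and Stat3 (-0.05) did not pass. Nor did the receptor genes on the list, Il6st, which encodes gp130 (-0.85, edgeR adjusted p = 0.0722), and Il6ra (-0.60, 0.182). Of the 11 values 3 were positive and 8 negative, and gp130 signalling itself was not tested. Of 10 lymphocyte markers 0 were called by edgeR (5 lower and 0 higher at an unadjusted p under 0.05), and their sum was 48.1 and 15.9 CPM in control and 9.66 and 10.7 CPM in extract. Most of that sum is Ptprc, which encodes CD45 and is also expressed by other leukocytes, macrophages included. The most abundant, Ptprc (-1.52), Cd8a (-3.22) and Nkg7 (-3.39), did not pass the threshold. Cd8a overlapped between the groups, at 6.04 and 0.337 CPM in control and 0.116 and 0.567 CPM in extract. Of 6 cholangiocyte markers 1 was lower (Sox9, -1.60, while Spp1 gave -0.05 and Krt19 1.52) and 0 higher (edgeR; 1 lower and 1 higher at an unadjusted p under 0.05). Their sums were 43.5 and 50.6 CPM in control and 44.8 and 46.9 CPM in extract. Most of each sum is Spp1, which is also on the list of recruited macrophage markers.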
